A study of Rattus norvegicus with 4 samples.

Results

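Collecting duct spots were the Visium spots richest in RNA of 3 genes of the collecting duct: Aqp2 and Aqp3, the vasopressin-regulated and the basolateral water channel of principal cells, and Fxyd4, a sodium pump subunit of the duct. In each of 4 rat kidney sections, spots of at least 3000 UMIs (unique molecular identifiers, which count captured RNA molecules) were ranked by the summed share of these 3 genes, and the top 5% were taken. This gave 130 of 2607 such spots in the PAN section, 143 of 2863 in the healthy section, 109 of 2180 in the PAN_LS-FMD section and 128 of 2551 in the healthy_LS-FMD section, 510 in all of 10383 deposited spots. A Visium spot covers a small patch of tissue, often with more than one cell type in it, so a collecting duct spot is a region and not a cell.

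All sections were 10 µm frozen sections of Sprague-Dawley rat kidney. The PAN rat received puromycin aminonucleoside, a podocyte toxin used to model glomerular disease, and was fed ad libitum. The PAN_LS-FMD rat received the toxin and 6 cycles of LS-FMD, a low-salt fasting-mimicking diet, and was examined 6 weeks after the diet. Both were examined 5 months after injection. The healthy rat had no treatment, and the healthy_LS-FMD rat had no toxin and 1 diet cycle and was examined after 72 hours of refeeding. There was 1 section per group, so no comparison had a replicate check. Intervals below cover counting error only, at 95%, and animals and sections of 1 group could differ by more.

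The collecting duct, into which nephrons drain, sets the final water, salt and acid content of urine. Its principal cells take up sodium through the epithelial sodium channel, under aldosterone, and water through aquaporins, under vasopressin. Type A intercalated cells secrete acid with a vacuolar proton pump and the basolateral exchanger Slc4a1, while type B cells secrete bicarbonate through pendrin, Slc26a4. In the cortex the duct continues from the connecting tubule, which shares many of these genes, and in the medulla its cells accumulate organic osmolytes.

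The 3 selecting genes chose the spots, and their values are given only as a description. Throughout, 4 values in a row refer to the PAN, healthy, PAN_LS-FMD and healthy_LS-FMD sections, in that order, and levels (CPM) are UMIs summed over spots, per 1000000 UMIs of the same spots. The last spot inside the limit had 1323, 2019, 1933 and 5744 CPM of the 3 genes, and the first spot outside had 1318, 2015, 1919 and 5708 CPM. The median collecting duct spot had 2509, 3093, 2725 and 7517 CPM, against 186, 340, 428 and 978 CPM in the other spots. The healthy_LS-FMD section thus stood apart, with a limit above the median collecting duct spot of every other section. Aqp2 alone was at 2134, 2047, 2009.8 and 5202 CPM in the collecting duct spots.

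Collecting duct spots held 1207661, 2817475, 1525534 and 1005927 UMIs, with a median of 8082.5, 19313, 13199 and 7250.0 UMIs per spot against 8695, 19564, 15103 and 9073 in the other spots. A count of 3 in these sums corresponds to 2.48, 1.06, 1.97 and 2.98 CPM, the limit that a count of 0 allows for a gene whose reads could be counted. Visium barcodes mark positions on a slide, and 1221 occurred in all 4 sections. Of 489 distinct barcodes of collecting duct spots, 21 belonged to collecting duct spots in 2 or more sections.

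Spots differed in what else they held, and this differed between sections. Genes of the proximal tubule lists (S1, S2 and S3 segments) took 1.18%, 3.501%, 4.20% and 1.16% of UMIs in collecting duct spots, and 1.84%, 4.87%, 5.28% and 3.48% in the other spots. Mitochondrially encoded genes took 2.92%, 4.71%, 3.16% and 4.38%, and haemoglobin genes 0.108%, 0.350%, 0.129% and 0.0333%. Because a spot mixes cells, fewer cells of a type and less RNA per cell cannot be told apart in any value below.

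**Figure D1:**
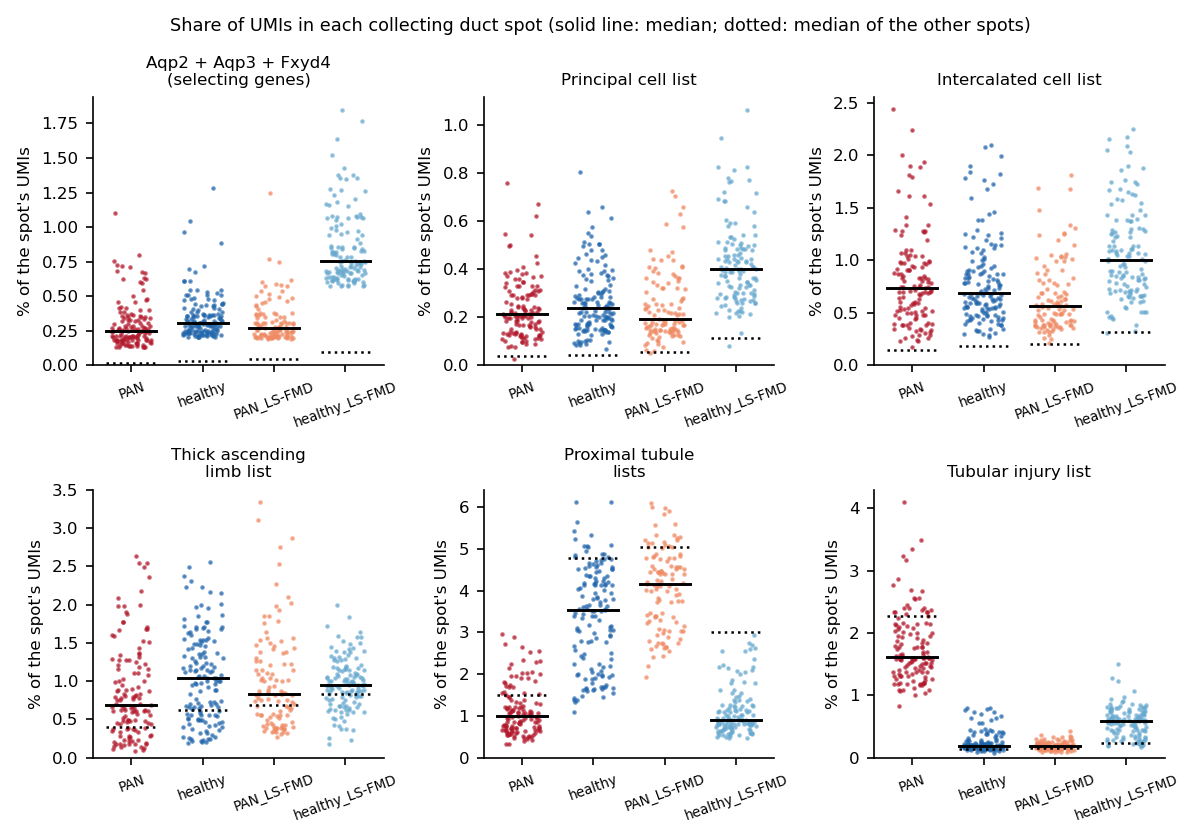
Share of UMIs (%) of the 3 selecting genes and of 5 gene lists in each collecting duct spot, by section; points are spots, solid lines the median of these spots and dotted lines the median of the other spots. The healthy_LS-FMD spots stand above the others for the selecting genes, the healthy and PAN_LS-FMD spots for proximal tubule genes (medians 3.54% and 4.17%), and the PAN spots for injury genes (median 1.61%).

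The label was borne by genes the selection did not use. For a comparison of summed counts, a gene was taken as measured at 20 UMIs or more over both sums, and as higher or lower at 1.5-fold with a counting interval that excluded 1. Against the other spots of their section, 12 of 13, 12 of 13, 11 of 13 and 11 of 13 measured principal cell genes were higher in the collecting duct spots, with median log2 ratios of 2.87, 2.42, 2.02 and 1.84. Of 20 measured intercalated cell genes, 19, 19, 18 and 17 were higher, with medians of 2.99, 2.47, 2.13 and 1.82. Over all measured genes, 5.81%, 8.71%, 6.08% and 14.9% were higher and 3.61%, 1.8%, 0.856% and 7.14% lower. In all 4 sections together, 261 of 11080 genes (2.36%) were higher in the collecting duct spots and 4 were lower. No principal or intercalated cell gene was lower in any section; Hsd17b11, of the principal cell list, was at 0.872, 0.877, 1.05 and 0.723 times the other spots.

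These splits depend on the scaling. With size factors from the median of ratios in place of CPM, 612, 701, 491 and 994 genes were higher and 522, 616, 228 and 1161 lower, where CPM gave 694, 1074, 711 and 1721 higher and 431, 222, 100 and 825 lower.

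Ranked by the lowest of their 4 ratios to the other spots, the leading genes were those of intercalated and principal cells, headed by Grem1, a secreted antagonist of bone morphogenetic proteins. Grem1 was at 179, 111, 124 and 255 CPM in collecting duct spots and at 11.9, 10.7, 15.4 and 36.6 CPM elsewhere, ratios of 15.0, 10.4, 8.03 and 6.99. Slc4a1 followed, at 16.7, 7.16, 5.62 and 5.71 times the other spots, and Foxi1, the forkhead factor of intercalated cells, at 10.8, 7.02, 5.52 and 5.13 times. Proton pump subunits were frequent among the 20 leading genes: Atp6v1g3, Atp6v1c2, Atp6v0d2 and Atp6v1b1. They stood beside the ammonia transporters Rhcg and Rhbg, the sodium channel subunits Scnn1g and Scnn1b, Slc26a4, and Hsd11b2, which shields the mineralocorticoid receptor from glucocorticoids. Others were Muc20 (a mucin), Mal2 (a membrane trafficking protein), Acer2 (a ceramidase), A4galt (a glycolipid synthase), Adgrf5 (an adhesion receptor) and Tmc4. By point value the ratio was highest in the PAN section for each gene named here except Tmc4, at 2.86, 2.92, 3.16 and 3.04 times.

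**Figure D2:**
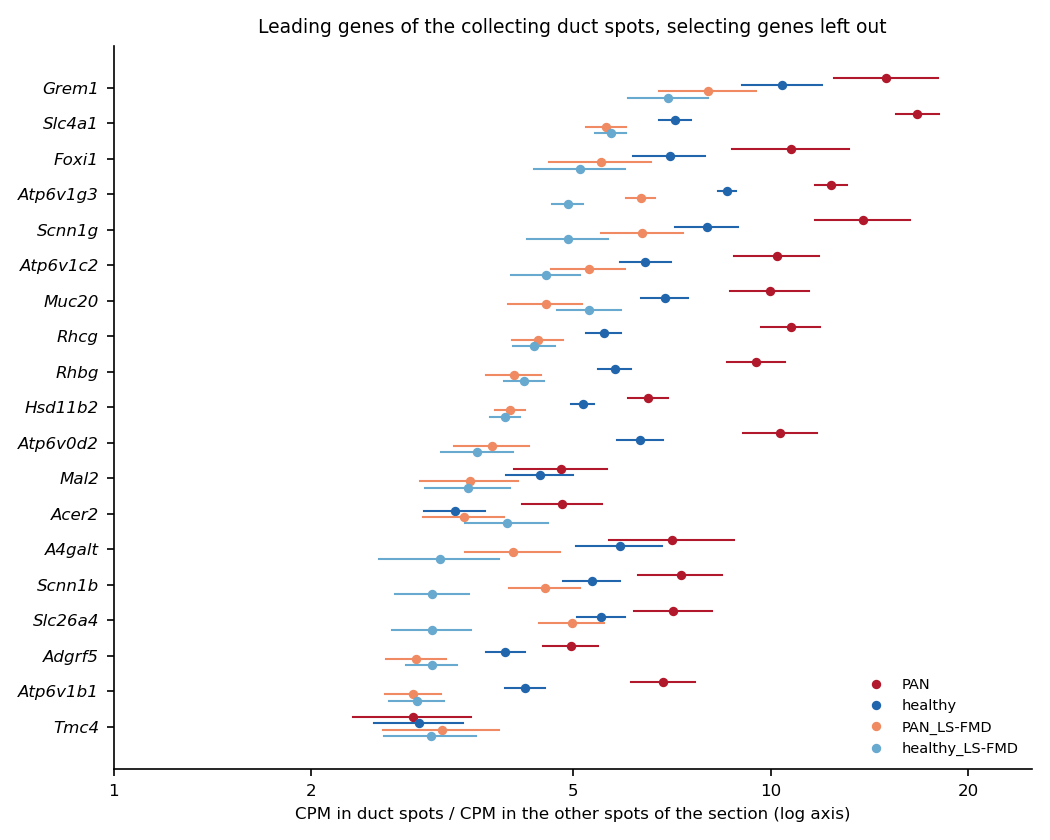
Ratio of the level (CPM) in collecting duct spots to that in the other spots of the section for the leading genes named here, on a log axis; points are sections and bars are 95% counting intervals. All ratios lie between 2.86 and 16.7, and for Slc4a1 the PAN value of 16.7 stands apart from 7.16, 5.62 and 5.71.

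RefSeq promoter windows (rat build GRCr8, 250 bases before to 50 after the gene start) were found for 15 of the 20 leading genes. They are shown for the transcription factor Foxi1 and for 2 proton pump genes that led with it, since forkhead factors bind sequences like TGTTTAC. In these windows, matches on either strand to TGTTTAC, to the GATA sequence AGATAA and to the grainyhead sequence AACCNGTT are in capitals. TGTTTAC was present in 1 of the 15 windows, that of Atp6v1b1, and in 3.78% of all 33469 windows. AGATAA was in 0 of the 15 and in 11.6% of all windows, and AACCNGTT in 0 and in 2.10%. These are letter matches in a short window and say nothing on binding.
Atp6v1b1, chr4:117781194-117781493, plus strand: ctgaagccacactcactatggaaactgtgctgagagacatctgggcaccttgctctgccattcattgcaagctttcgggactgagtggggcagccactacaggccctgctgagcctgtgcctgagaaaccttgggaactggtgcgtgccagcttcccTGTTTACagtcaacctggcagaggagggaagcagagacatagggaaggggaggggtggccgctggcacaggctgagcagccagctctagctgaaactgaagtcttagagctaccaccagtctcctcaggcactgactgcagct
Atp6v1g3, chr13:52362082-52362381, plus strand: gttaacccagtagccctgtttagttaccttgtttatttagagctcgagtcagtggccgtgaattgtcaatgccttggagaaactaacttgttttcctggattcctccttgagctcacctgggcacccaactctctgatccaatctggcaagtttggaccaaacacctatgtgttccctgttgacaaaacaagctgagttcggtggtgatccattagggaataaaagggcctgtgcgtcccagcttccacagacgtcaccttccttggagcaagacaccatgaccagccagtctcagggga
Foxi1, chr10:19314356-19314655, minus strand: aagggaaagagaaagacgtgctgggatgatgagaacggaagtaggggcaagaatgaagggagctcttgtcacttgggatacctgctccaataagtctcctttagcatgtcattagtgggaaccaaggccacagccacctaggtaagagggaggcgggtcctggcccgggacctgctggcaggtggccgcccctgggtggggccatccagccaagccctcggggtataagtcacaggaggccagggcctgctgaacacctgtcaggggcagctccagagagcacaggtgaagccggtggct

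Water channel genes beyond the selecting ones came first in the principal cell account. Aqp4, the other basolateral water channel of principal cells, was at 73.7, 62.8, 56.4 and 229 CPM in collecting duct spots and at 5.46, 5.20, 9.33 and 31.0 CPM elsewhere. Its level in the healthy_LS-FMD spots lay above the other sections, whose intervals overlapped. A common limit of 5744 CPM of selecting genes left 14, 10, 8 and 128 spots. There Aqp4 was at 205, 261, 125 and 229 CPM, highest in healthy. The vasopressin receptor gene Avpr2 was sparse, with 9, 11, 5 and 12 UMIs. When every spot was thinned to 3000 UMIs, Aqp4 was found in 17.7%, 16.1%, 18.3% and 47.7% of collecting duct spots and in 1.4%, 1.4%, 2.8% and 9.3% of the other spots. Without thinning the shares were 42.3%, 58.04%, 49.5% and 71.9%, and 4.9%, 9.6%, 13.1% and 22.4%.

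Sodium transport genes were found in all sections. Scnn1a, the pore subunit that the channel needs for conduction, was at 122, 94.1, 123 and 173 CPM, Scnn1b at 211, 177, 201 and 263 CPM and Scnn1g at 204, 163, 163 and 237 CPM. The order of the sections was not the same for the 3 subunits except that healthy_LS-FMD was highest for each. The common limit did not keep this, and PAN_LS-FMD, with 8 spots, was highest for each. Scnn1a was then at 116, 97.8, 295 and 173 CPM, Scnn1b at 321, 245, 465 and 263 CPM and Scnn1g at 321, 179, 510 and 237 CPM. Hsd11b2 was at 895, 1099.9, 1050.1 and 1647 CPM, lowest in PAN. Scnn1g differed most between collecting duct spots and the rest, at 13.8, 7.998, 6.38 and 4.91 times, and Scnn1a least, at 3.60, 3.04, 2.60 and 1.78 times. Of 17 measured genes of the sodium channel and aldosterone list, 7, 6, 6 and 7 were higher in the collecting duct spots. Sgk1, the aldosterone-induced kinase, was not among them, at 0.949, 1.08, 1.03 and 1.34 times the other spots, nor was the channel-activating protease Prss8, at 0.949, 0.799, 0.947 and 0.666 times. St14, another membrane protease, was at 2.45, 2.43, 1.89 and 2.40 times. The mineralocorticoid receptor gene Nr3c2 and the potassium channel gene Kcnj10 had 0 UMIs in the collecting duct spots of every section. Counting error alone allows up to the 3-count levels given above. Egfr, Notch2, Slc8a1 and Trpm6 also had 0 UMIs in the 128 healthy_LS-FMD spots. The annotation of the counts was not given, so whether reads of such genes could be counted is not known.

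Acid-base genes came next. Atp6v1g3, the G3 subunit of the proton pump, was at 1707, 1958, 1242 and 1620.4 CPM. Slc4a1 was at 1076, 620, 647 and 1572 CPM, high in PAN and healthy_LS-FMD, with intervals that did not overlap those of the other sections. Slc26a4 was at 242, 257, 241 and 236 CPM, and its 4 intervals overlapped. At a common limit of 5744 CPM of selecting genes, which left 14, 10, 8 and 128 spots, it was at 301, 10.9, 363 and 236 CPM, from 2 UMIs in healthy. UMIs of Slc4a1 per UMI of Slc26a4 were 4.45 (3.92 to 5.07), 2.41 (2.21 to 2.63), 2.68 (2.38 to 3.03) and 6.67 (5.82 to 7.68), against 1.89, 1.86, 2.38 and 3.56 in the other spots. Rhcg, an apical ammonia channel, was at 482, 469, 389 and 835 CPM. Thinned to 3000 UMIs, Slc4a1 was found in 80.8%, 80.4%, 78.9% and 98.4% of collecting duct spots and in 16.0%, 21.1%, 26.6% and 50.6% of the others; Slc26a4 was found in 38.5%, 31.5%, 34.9% and 22.7%, and in 9.0%, 12.1%, 13.1% and 17.2%. Unthinned, Slc4a1 was in 93.1%, 100%, 99.1% and 99.2% of collecting duct spots and in 37.5%, 72.9%, 74.5% and 82.5% of the others, and Slc26a4 in 45.4%, 60.1%, 55.0% and 33.6%, and in 20.5%, 45.5%, 40.1% and 35.04%.

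**Figure D3:**
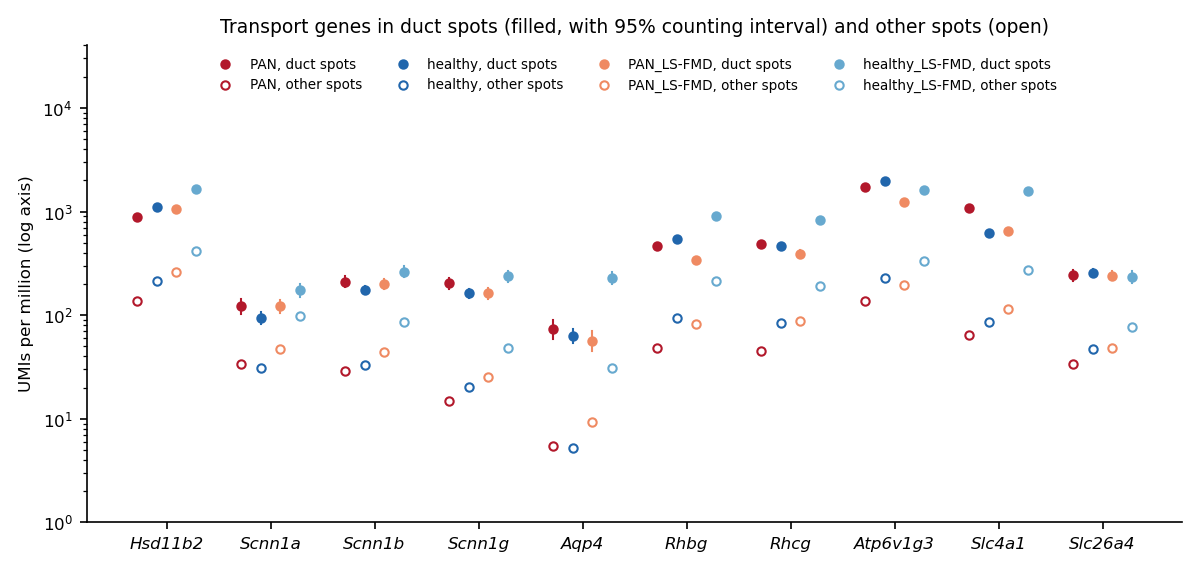
Level (CPM, log axis) of 10 transport genes in collecting duct spots (filled, with 95% counting intervals) and in the other spots (open), coloured by section. Collecting duct spots lie above the other spots for each gene and section; Slc26a4 lies between 236 and 257 CPM in all sections, which a common limit on the selecting genes did not keep, whereas Slc4a1 ranges from 620 to 1572 CPM.

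Slc14a2, the urea transporter gene of the inner medullary duct, had 0, 0, 0 and 1 UMI, and Krt19 had 0 in all sections. For Krt19 too, whether its reads could be counted is not known. Of the inner medullary duct and osmolyte list, 1 of 16, 5 of 14, 2 of 13 and 8 of 14 measured genes were higher than in the other spots. Fabp3, a fatty acid binding protein, was higher in all 4 sections, at 499, 831, 382 and 1386 CPM or 3.39, 2.27, 1.90 and 2.46 times the other spots. Akr1b1, the aldose reductase that makes sorbitol, was at 77.8, 42.6, 47.2 and 68.6 CPM. Slc6a12, the betaine transporter, was at 9.94, 6.74, 3.93 and 215 CPM. Only healthy_LS-FMD held more than a few UMIs of it, 216 against 12, 19 and 6.

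Markers of neighbouring tubules were also present. Umod, the uromodulin gene of the thick ascending limb, was at 1.39, 1.21, 1.14 and 0.885 times the other spots. The thick ascending limb list took a median 0.694%, 1.04%, 0.836% and 0.946% of a collecting duct spot's UMIs, against 0.397%, 0.617%, 0.683% and 0.826% in the other spots, and 4, 2, 1 and 3 of its 9 measured genes were higher. Genes of the thin limb, a medullary segment, took a median 0.107%, 0.146%, 0.210% and 0.288%, below the 0.129%, 0.165%, 0.237% and 0.323% of the other spots. Spots chosen in the same way by Slc12a1, Umod and Cldn16 shared 9, 7, 7 and 0 spots with the collecting duct spots. In those thick ascending limb spots, the principal cell list had medians of -0.27, -0.19, -0.13 and -0.30 against their own other spots. Spots chosen by Slc12a3, Calb1 and Trpm6, for distal convoluted and connecting tubule, shared 9, 9, 6 and 1 spots with the collecting duct spots. Their principal cell medians were 1.55, 1.55, 1.46 and 0.97 and their intercalated cell medians 1.39, 1.55, 1.13 and 1.30. The collecting duct spots had 2.87, 2.42, 2.02 and 1.84, and 2.99, 2.47, 2.13 and 1.82. For the sodium channel and aldosterone list the order was opposite in all sections but PAN. Its medians were 0.37, 0.79, 0.75 and 0.75 in the distal convoluted and connecting tubule spots. In the collecting duct spots they were 0.51, 0.37, 0.25 and 0.43. Of 17 measured genes, 7, 11, 10 and 9 were higher in the former and 7, 6, 6 and 7 in the latter. These differences were not tested, because spots of 1 section are not replicates.

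The selecting share, which chose the spots, was set beside other shares as a description that supports nothing. Over spots, Spearman's rho between the selecting share and the intercalated share was 0.63, 0.31, 0.25 and 0.29, over 130, 143, 109 and 128 spots that share a library. With the principal cell share it was 0.58, 0.34, 0.38 and 0.30, and with the proximal share -0.39, -0.25, -0.10 and -0.10. Shares of 1 total trade off, and the rule limits the selecting share from below. In the tubular injury list the sign differed between sections, at -0.33, 0.29, 0.13 and 0.10.

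Collecting duct spots were then split at their section's median proximal tubule share, and the 2 sets did not differ in the same way in every section. Another kind of duct and other neighbouring tubules cannot be told apart within a spot. Calb1, the calcium-binding protein of the connecting tubule, was at 578 CPM in the low-proximal spots and 63.9 CPM in the high-proximal spots of the healthy section, and at 717 and 47.0 CPM in PAN_LS-FMD. In PAN the order was opposite, at 68.8 and 353 CPM, and so it was in healthy_LS-FMD, at 44.9 and 425 CPM. Slc26a4 had low over high ratios of 0.927, 2.37, 6.01 and 0.167, and Insrr, a receptor kinase of type B intercalated cells that senses alkali, 0.992, 2.59, 3.40 and 0.133. Of the sodium channel subunits, Scnn1b had ratios of 0.929, 1.85, 2.85 and 0.421. In PAN the ratios of Slc26a4, Insrr and Scnn1b were thus near 1, unlike that of Calb1. Slc4a1 differed more than Scnn1b in PAN and less in the other sections, at 2.08, 1.29, 0.771 and 0.884. Fabp3 and S100a6, a calcium-binding protein, were higher in the low-proximal spots of all 4 sections, Fabp3 at ratios of 2.02, 1.95, 1.53 and 1.80 and S100a6 at 2.06, 4.68, 2.002 and 2.79.

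**Figure D4:**
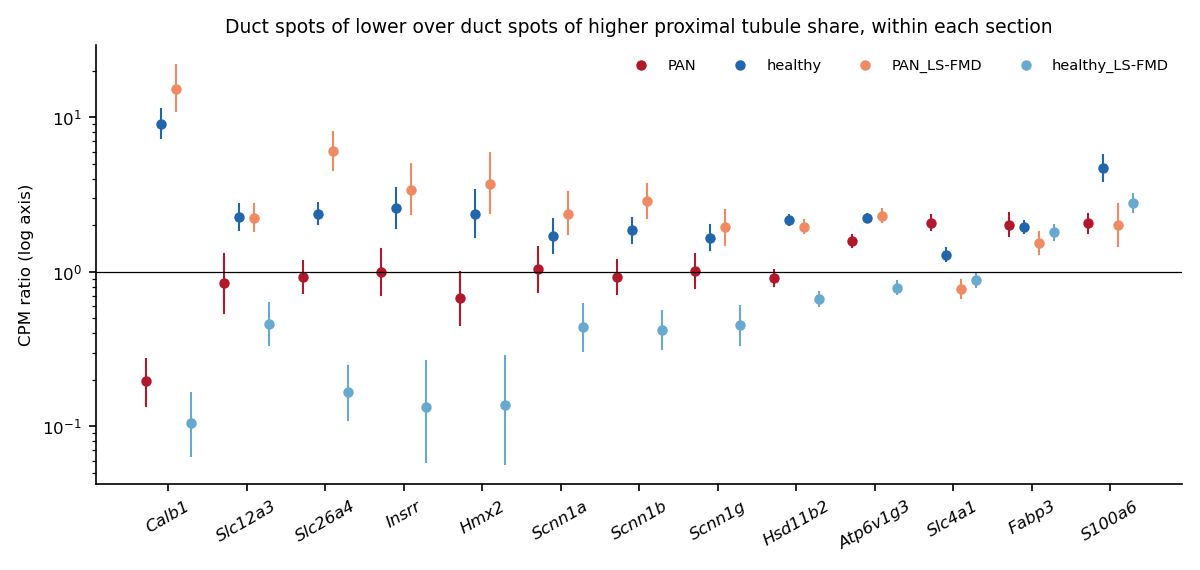
Ratio of the level in the collecting duct spots of lower proximal share to that in those of higher share, within each section (log axis, 95% counting intervals; the line marks 1). For Calb1 the healthy and PAN_LS-FMD values (9.05 and 15.3) lie above 1 and the PAN and healthy_LS-FMD values (0.195 and 0.106) below it, whereas Fabp3 and S100a6 lie above 1 in all sections.

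As these values differed between sections, comparisons between sections set collecting duct spots of unlike content beside each other. The share of cortical or connecting tubule RNA was not matched, and its part in the results below was not tested. At 1 common limit of 5744 CPM of selecting genes, only 14, 10, 8 and 128 spots remained, with proximal shares of 0.602%, 1.958%, 3.46% and 1.16%.

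The first comparison asked how collecting duct spots of the toxin-treated kidney differed from those of the untreated kidney. Genes of injury, matrix and immune cells were higher in the PAN collecting duct spots. Spp1, osteopontin, was at 10770.4 CPM in PAN and 530 CPM in healthy, 20.3-fold higher (19.3 to 21.4). Havcr1, kidney injury molecule 1, was at 97.7 against 3.19 CPM, 30.6-fold higher (15.6 to 68.5), and Lcn2, the siderophore-binding lipocalin, at 147 against 10.6 CPM, 13.8-fold higher (9.31 to 21.0). Over 9294 measured genes, 29.8% were higher and 8.33% lower. Scaled by the median of ratios the split was 1429 higher and 1601 lower, against 2774 and 774 with CPM. The median log2 fold of all genes was 0.34 with CPM and -0.02 with the median of ratios, so a list's median is read against 0.34.

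The tubular injury list had 16 of 21 measured genes higher and 1 lower (median log2 fold 1.69), fibroblast and matrix genes 18 of 18 higher (2.27), and macrophage and MHC class II genes 19 of 19 (2.35). Clu, clusterin, was at 2192 against 199 CPM. Col1a1, a chain of type I collagen, was at 344 against 35.8 CPM, and Cyr61, a matricellular protein, at 72.0 against 4.97 CPM. The largest folds were those of immunoglobulin genes: Ighm, the mu heavy chain, at 1926 against 23.4 CPM (82.2-fold, 64.4 to 107) and Igkc, the kappa chain, at 872 against 12.1 CPM. One spot held 12.3% of the Ighm UMIs of the PAN collecting duct spots. Ccl21, a lymphocyte chemokine, was at 980 against 16.7 CPM.

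The medians of the injury, matrix and macrophage lists were not larger in the collecting duct spots than elsewhere. That of 3 measured B and plasma cell genes was, at 6.18 against 4.48, but gene by gene the median difference was 0.40. Within the PAN section, 0 of 7 measured B and plasma cell genes were higher in the collecting duct spots than elsewhere. In the other spots of the 2 sections the medians were 2.13 for injury, 2.65 for matrix and 2.62 for macrophage genes. Spp1 was 54.4-fold higher there, Lcn2 23.6-fold and Havcr1 25.9-fold. Relative to the other spots, the collecting duct folds of the injury, matrix and macrophage lists had medians of -0.44, -0.23 and -0.25. Within the PAN section, Spp1 in the collecting duct spots was at 0.614 (0.604 to 0.625) and Havcr1 at 0.433 (0.358 to 0.520) times the level of the other spots, whereas in the healthy section Spp1 was at 1.64 times (1.56 to 1.73).

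The sodium channel list had 4 of 17 higher and 1 lower, with a median of 0.24, and -0.12 with the median of ratios. Principal cell genes had 1 of 11 higher and 1 lower, with a median of 0.23, and -0.13 with the median of ratios. Ptges, a prostaglandin E synthase, was at 111 against 73.8 CPM and Kcne1, a potassium channel subunit, at 35.6 against 55.0 CPM. Intercalated cell genes had 5 of 19 higher and 1 lower, with a median of 0.04, or -0.32 with the median of ratios; the other spots had -0.57. Those higher were Slc4a1, 1.74-fold (1.61 to 1.87), the type B exchanger Slc4a9, the factors Dmrt2 and Hmx2, and Insrr. Slc26a7 was at 9.11 against 17.7 CPM. With the median of ratios the log2 fold of Slc4a1 fell from 0.80 to 0.44, under the 1.5-fold limit. In the low-proximal spots Slc4a1 had a log2 fold of 1.06 and in the high-proximal spots 0.37.

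Among duct-enriched genes, those at 2 times or more the other spots in either section, the highest were Dcdc2, Cpne8, Wfdc10a, Guca2a, Gstm1, Hspa1b, Lgals3 and Ccdc80. Guca2a, guanylin, a peptide activator of guanylate cyclase C, was at 321 against 85.2 CPM, 3.77-fold higher (3.20 to 4.45), and 1.90-fold higher in the other spots. Wfdc10a was at 181 against 47.9 CPM, 3.78-fold higher, and 2.51-fold in the other spots. Dcdc2, a microtubule-binding doublecortin protein, was 4.52-fold higher here and 7.77-fold elsewhere. The lowest was Stc1, the secreted hormone stanniocalcin 1, at 20.7 against 83.8 CPM, 4.05-fold lower (2.67 to 6.38), and 1.998-fold lower in the other spots. Smpx, Rrad, Fabp4, Slc16a7, Nt5dc2, Adipoq and Asb15 came next, 3.53 to 1.98-fold lower.

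Proximal S3 genes were lower for 8 of 8 measured genes (median -2.53, and -2.25 in the other spots). Slc7a13, an amino acid transporter of S3, was at 176 against 1803 CPM. Nuclear genes of oxidative phosphorylation were lower for 5 of 15, with a median of -0.46, Cycs, cytochrome c, at 1164 against 2384 CPM. The osmolyte list had 5 of 13 higher and 3 lower. Nfat5, the tonicity-responsive factor, was at 248 against 105 CPM and Akr1b1 1.83-fold higher, while the small heat shock gene Cryab was at 272 against 1193 CPM. The direction of Akr1b1 was opposite at the common limit, with a log2 fold of -0.99. The healthy counts came from Space Ranger 2.0.1 and the other 3 sections from 1.2.1. Program version and group therefore cannot be told apart in any comparison with the healthy section.

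The second comparison set the PAN_LS-FMD spots against the PAN spots, the question being what differed with the diet after the toxin. It shares the PAN section with the first. Collecting duct spots of PAN_LS-FMD held less RNA of injury, matrix and immune genes, and more of proximal genes. Spp1 was at 207 against 10770.4 CPM, 52.0-fold lower (46.5 to 58.3), and Havcr1 at 7.21 against 97.7 CPM, 13.6-fold lower (7.30 to 27.9). Injury genes were lower for 16 of 19 (median -2.03), matrix genes for 18 of 18 (-2.48) and macrophage genes for 17 of 18 (-1.67), with RT1-Bb the exception. Over 8840 measured genes, 8.54% were higher and 23.1% lower. The split was 755 higher and 2046 lower with CPM, and 1293 and 1183 with the median of ratios. The other spots had list medians of -2.13, -2.85 and -1.90, and Spp1 was 77.5-fold lower there.

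The sodium channel list had 2 of 16 higher, Sgk1 and Prss8, and 1 lower, St14. Scnn1a was at 123 against 122 CPM, Scnn1b at 201 against 211 CPM and Hsd11b2 at 1050.1 against 895 CPM. At the common limit, with 8 and 14 spots, Scnn1a was at 295 against 116 CPM and Scnn1g at 510 against 321 CPM. Principal cell genes had 0 of 10 higher and 1 lower, Ptges, with a median of -0.20 and 0.58 in the other spots. Intercalated cell genes had 0 of 19 higher and 6 lower: Slc4a1, Slc4a9, Atp6v0d2, Kit, Dmrt2 and Hepacam2. Their median was -0.36 in the collecting duct spots and 0.68 in the other spots. Scaled by the median of ratios the principal median was 0.07 and the intercalated median -0.09. Slc4a1 was 1.66-fold lower (1.53 to 1.81). Its log2 fold was -1.41 in the low-proximal spots and 0.03 in the high-proximal spots.

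Guca2a was at 42.0 against 321 CPM, 7.66-fold lower (5.87 to 10.1), and 2.80-fold lower in the other spots. Wfdc10a was 5.42-fold lower (3.98 to 7.51) and 2.53-fold lower elsewhere. Of the other duct-enriched genes Tspan1, a tetraspanin, was 3.96-fold lower and Cldn7, a tight junction claudin, 2.87-fold. Those highest were Rnf186, 1.85-fold (1.29 to 2.70), Dnase1, 1.81-fold (1.65 to 1.99), Calb1, 1.59-fold (1.36 to 1.85) and Sbspon. Dnase1 was 7.73-fold and Calb1 3.54-fold higher in the other spots. Slc12a3, the thiazide-sensitive transporter of the distal convoluted tubule, was at 286 against 75.4 CPM. Proximal S3 genes were higher for 8 of 8 (median 2.75), Kap at 12722 against 1731 CPM, and proximal S1 and S2 genes for 11 of 14 (1.22, and 0.66 in the other spots). Irx3 and Emx1, homeobox factors, were 2.61 and 2.51-fold higher, and Elf3, an epithelial ETS factor, 2.78-fold lower.

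The third comparison set the healthy_LS-FMD spots against the healthy spots, the question being what 1 diet cycle with refeeding left in the duct. Proximal S1 and S2 genes were lower for 14 of 14 (median -1.77), and the largest fold upward among genes with at least 100 UMIs was that of the betaine transporter gene. Slc6a12 was at 215 against 6.74 CPM, 31.8-fold higher (19.9 to 53.9), and 16.4-fold higher in the other spots. Slco4a1, an organic anion transporter, was at 115 against 7.81 CPM, 14.8-fold higher (9.31 to 24.5). Ranbp3l was at 536 against 64.2 CPM, 8.34-fold higher, and 3.77-fold in the other spots. Nadk2, the mitochondrial NAD kinase, was 8.24-fold higher and 3.12-fold in the other spots. Ndrg4, Slc4a11, Wnt7b and Smim5 were 7.73, 7.18, 7.04 and 7.04-fold higher, and in the other spots 7.12, 9.49, 9.23 and 8.36-fold. Over 9011 measured genes, 29.3% were higher and 8.41% lower. The split was 2639 higher and 758 lower with CPM, and 1054 and 1458 with the median of ratios. The median of all genes was 0.35 with CPM and -0.01 with the median of ratios.

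Principal cell genes were higher for 5 of 11 (median 0.58, and 1.24 in the other spots): Aqp4, Avpr2, Mal, Scnn1a and Rhbg. Aqp4 was 3.64-fold higher (2.98 to 4.45). Intercalated cell genes were higher for 5 of 19 (0.40, and 0.91 in the other spots): Slc26a7, Slc4a1, Dmrt2, Rhcg and Foxi1. Slc4a1 was 2.54-fold higher (2.37 to 2.72). With the median of ratios the medians were 0.22 and 0.04. The sodium channel list had 7 of 17 higher, among them Kcnj1, the secretory potassium channel, at 195 against 73.1 CPM. Duct transcription factors were higher for 12 of 18 (median 1.14, and 1.05 in the other spots), Sim1 at 102 against 23.8 CPM and Pax8 at 351 against 114 CPM. Claudin, adhesion and keratin genes were higher for 11 of 16 (median 0.82, and 0.79 in the other spots). The inner medullary duct and osmolyte list, which is not of osmolyte genes alone, had 7 of 13 higher. Of its genes, Nfat5 was at 310 against 105 CPM, Ptgs1, cyclooxygenase 1, at 143 against 41.5 CPM and S100a6 at 1077 against 238 CPM. Gpx3, plasma glutathione peroxidase of the proximal tubule, was at 2666 against 15436 CPM.

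The splits by proximal share moved these values. Principal cell genes had a median of -0.25 in the low-proximal and 1.39 in the high-proximal spots, and intercalated cell genes -0.38 and 1.27. Scnn1a had a log2 fold of 0.88 over all spots, -0.24 in the low-proximal and 1.71 in the high-proximal spots. At the common limit, where the healthy section kept 10 spots, Slc6a12 was at 10.9 CPM in healthy against 215 CPM, Ranbp3l at 76.1 against 536 CPM and Nadk2 at 10.9 against 246 CPM. At that limit Aqp4 was at 261 against 229 CPM and Spp1 at 1804 against 1979 CPM, where all collecting duct spots gave a log2 fold of 1.90 for Spp1. S100a6, at 815 against 1077 CPM, Slc4a1, at 1163 against 1572 CPM, and Ptgs1 were each within 1.5-fold there. Other genes named above still differed at that limit, Sim1 at 21.7 against 102 CPM and Kcnj1 at 81.5 against 195 CPM. Thin limb genes were higher for 6 of 6 (median 1.39, and 1.19 in the other spots), and their part in these values was not tested.

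Interferon genes were higher for 6 of 17 in this comparison (median 0.62, and 0.25 in the other spots), a share near the 29.3% of all measured genes. Stat2 was at 115 against 40.1 CPM, 2.88-fold, and 1.504-fold in the other spots; Isg15 was 2.52-fold higher, and 1.19-fold in the other spots. Cxcl10, an interferon-induced chemokine, was at 46.7 against 19.9 CPM, but at 46.7 against 59.8 CPM at the common limit. Injury genes were higher for 7 of 17 and lower for 3, with Spp1 at 1979 against 530 CPM and Lcn2 at 29.8 against 10.6 CPM, or 27.2 CPM in healthy at the common limit. Matrix genes were higher for 3 of 16, a share below that of all genes, and macrophage genes for 4 of 16, a share near it. The proximal S1 and S2 median was -0.72 in the other spots, and among its genes was Miox, the inositol-degrading oxygenase, at 161 against 855 CPM. The lowest duct-enriched gene, Dapl1, was 3.02-fold lower; Guca2a was at 70.6 against 85.2 CPM and Stc1 at 69.6 against 83.8 CPM, each within 1.5-fold.

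The fourth comparison set the PAN_LS-FMD spots against the healthy spots, and fewer genes differed: of 9115 measured genes, 6.58% were higher and 3.48% lower. The split was 600 and 317 with CPM, and 416 and 458 with the median of ratios. No duct transcription factor of 19 differed. Sodium channel genes differed for 1 of 17, Fxyd2, a sodium pump subunit, at 515 against 885 CPM. Principal cell genes were lower for 2 of 11, Rhbg at 337 against 539 CPM and Kcne1 at 34.7 against 55.0 CPM, and intercalated cell genes for 3 of 19, Atp6v1g3, Atp6v0d2 and Hepacam2. Scnn1g was at 163 CPM in both, and Slc4a1 at 647 against 620 CPM. At the common limit, with 8 and 10 spots, Scnn1g was at 510 against 179 CPM and Slc4a1 at 681 against 1163 CPM. Proximal shares of these spots were 4.20% and 3.501%.

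Injury genes were lower for 4 of 18 and higher for 0, with Spp1 at 207 against 530 CPM, 2.56-fold lower, and S100a6 at 122 against 238 CPM. Fabp3 was at 382 against 831 CPM, Ptgs1 at 17.0 against 41.5 CPM and Stc1 2.56-fold lower (1.88 to 3.54), which the common limit did not keep. Btc, the growth factor betacellulin, was at 11.8 against 33.0 CPM, 2.80-fold lower, whereas the other spots were 1.11-fold higher. Tspan1 was 4.15-fold lower (3.32 to 5.24). Of the macrophage and MHC class II list, 9 of 16 genes were higher (median 0.67, and 0.46 in the other spots), C1qa, a complement subunit of macrophages, at 108 against 53.9 CPM. Ighm was at 338 against 23.4 CPM and Igkc at 104 against 12.1 CPM, but 1 spot held 44.9% of the Ighm and 38.4% of the Igkc UMIs. Gpx2, a glutathione peroxidase, was 8.15-fold higher (5.73 to 11.8), against 5.97-fold in the other spots.

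**Figure D5:**
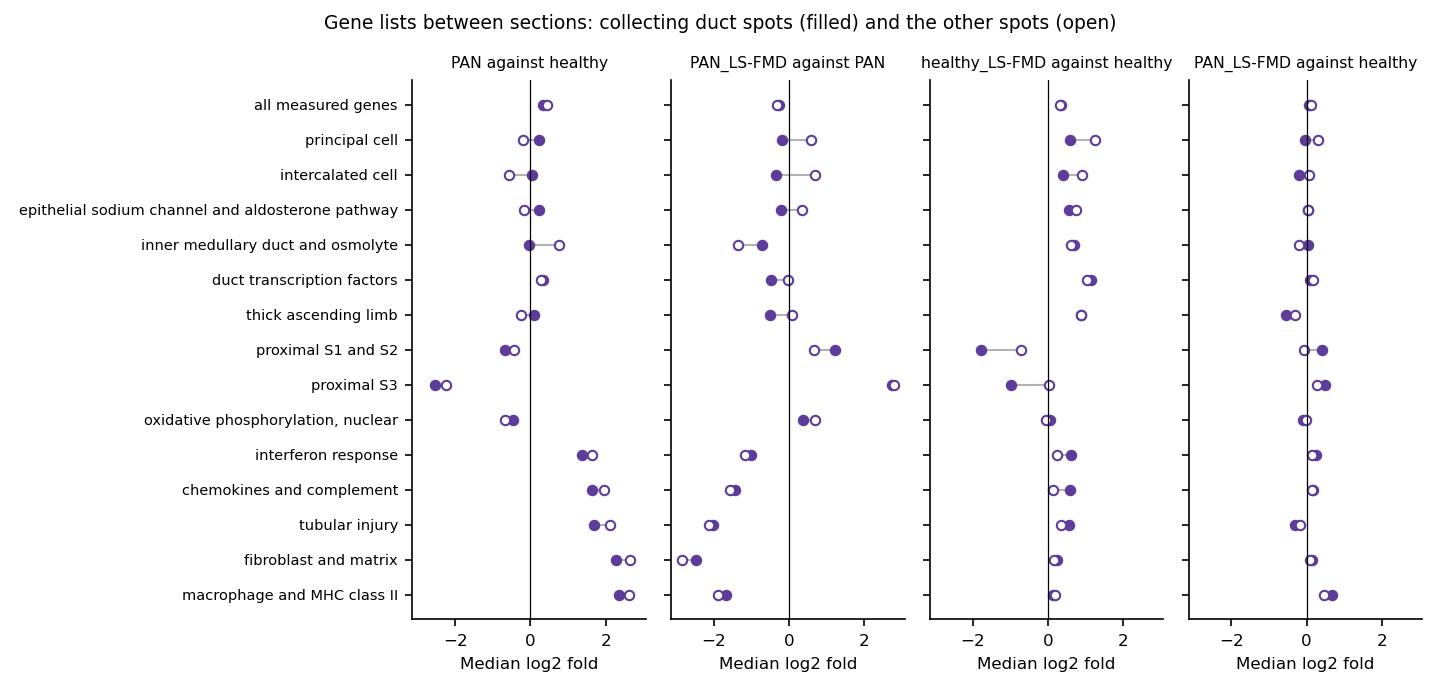
Median log2 fold of 14 gene lists and of all measured genes in the 4 comparisons, in collecting duct spots (filled) and in the other spots of the same sections (open). Injury, matrix and macrophage lists lie between 1.69 and 2.35 for PAN against healthy and between -2.48 and -1.67 for PAN_LS-FMD against PAN in collecting duct spots; the intercalated list lies at 0.04 and -0.36, where the other spots lie at -0.57 and 0.68.

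These comparisons share sections, so the levels of 3 genes are set side by side. Guca2a was at 321, 85.2, 42.0 and 70.6 CPM in the 4 sections, highest in PAN. Wfdc10a was at 181, 47.9, 33.4 and 59.6 CPM, likewise. Stc1 was at 20.7, 83.8, 32.8 and 69.6 CPM, lower in both toxin-treated sections, but at 20.5, 109, 102 and 69.6 CPM at the common limit, where PAN_LS-FMD was no longer low. The 3 genes were picked as duct-enriched extremes of a comparison with PAN, so these levels are a description.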

How the data were processed

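Spatial expression was measured in 1 Visium section per group. The authors deposited UMI counts per gene and spot, made with Space Ranger, version 2.0.1 for healthy and 1.2.1 for the other sections per the file headers; the genome build and annotation are not given in the sources used here. The matrices held 32402 features. No doublet caller was run, since spots are not cells. The collecting duct spots and the gene lists were chosen with earlier results of these data known.

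Counts were summed over the collecting duct spots of each section and scaled to CPM (counts per 1000000). Poisson intervals of levels and conditional binomial intervals of folds are exact, at 95%, and cover counting error only. With 1 section per group there was no test. A gene at 0 counts was set to a floor of 3 counts over the sum. Genes were named as the 20 leading genes, the 10 highest and lowest folds and the 8 highest and lowest duct-enriched folds per comparison, plus listed genes, apart from some not reported here, the first 3 of these with at least 100 UMIs. In a simulation of PAN against healthy over 9277 genes, 96% of genes changed 2-fold were recovered and 1.98% of unchanged genes were called. It drew Poisson counts from a profile shared by both sections, without variation between spots, sections or animals. These rates therefore hold for counting error alone and are not error rates of the real comparison. Python 3.11.15, numpy 2.4.6, pandas 2.3.3, scipy 1.17.1 and matplotlib 3.10.9 were used. Alternatives changed the share of spots, the UMI minimum, the selecting genes, the scaling, the depth and the thresholds.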

Additional observations from a re-analysis of the deposited data

How the results depend on the processing

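No paired analysis was possible because each group had 1 section. Counts of genes (higher, then lower) are given in the order PAN against healthy, PAN_LS-FMD against PAN, healthy_LS-FMD against healthy and PAN_LS-FMD against healthy; "against other spots" means collecting duct spots against the rest of a section. At the common limit they were 435 and 321, 306 and 321, 716 and 318, and 249 and 199, and against other spots 465 were lower in healthy and 187 in PAN_LS-FMD. With the median of ratios they were 1429 and 1601, 1293 and 1183, and 1054 and 1458, and against other spots 701 and 616 in healthy, 228 lower in PAN_LS-FMD and 994 higher in healthy_LS-FMD. Thinned to 3000 UMIs, 1243 were higher, 909 lower, 1260 and 498, and 273 and 191; against other spots 286 were lower in PAN, 452 higher in PAN_LS-FMD and 1080 higher in healthy_LS-FMD. With at least 100 UMIs, 1577 were higher, 1000 lower, 1721 higher, and 334 and 184. At 2-fold they were 1553 and 458, 450 and 1174, 1178 and 454, and 236 and 166, and against other spots 386 and 143, 556 and 81, 354 and 33, and 764 and 549 in the 4 sections. Relative to the fold of the other spots they were 173 and 447, 448 and 208, 322 higher, and 165 and 180. Against other spots, the high-proximal spots gave 441 higher in PAN, 576 in healthy and 423 in PAN_LS-FMD; the low-proximal spots gave 659 lower in healthy, and 1119 and 358 in PAN_LS-FMD. The top 10% gave 270 lower in PAN, and Aqp2 alone 171 lower in PAN_LS-FMD. For some lists and genes, subtracting the log2 fold of the other spots gave a value of opposite sign to the fold. Such a value is not a reversed fold, but marks a smaller change than in the other spots. For PAN against healthy these differences were injury -0.44, matrix -0.23, macrophage -0.25, Akr1b1 -0.74, Spp1 -1.42 and Lcn2 -0.78. For PAN_LS-FMD against PAN the lists had osmolyte 0.37, injury 0.28, matrix 0.32 and macrophage 0.36. The genes there had Akr1b1 0.88, Spp1 0.58, Lcn2 0.96, Havcr1 1.43 and Col1a1 0.19. For healthy_LS-FMD against healthy they were Avpr2 -0.23, Aqp4 -0.71, Scnn1a -0.77, Slc4a1 -0.32 and Spp1 -0.0650. The direction of the fold itself (log2) reversed at the common limit for Akr1b1 (-0.99 for PAN and -0.25 for healthy_LS-FMD, each against healthy). It also reversed there for Aqp4 in healthy_LS-FMD against healthy (-0.19) and Slc26a4 against other spots in healthy (-2.39). In high-proximal spots it reversed for Slc4a1 in PAN_LS-FMD against PAN (0.0254) and for Spp1 against other spots in healthy (-0.67). In low-proximal spots it reversed for Scnn1a in healthy_LS-FMD against healthy (-0.24) and for Slc26a4 against other spots in healthy_LS-FMD (-0.27). In low-proximal spots of healthy_LS-FMD against healthy the principal and intercalated medians also turned, to -0.25 and -0.38. At the common limit Cxcl10 also turned in healthy_LS-FMD against healthy (46.7 against 59.8 CPM). So did Slc4a1 in PAN_LS-FMD against healthy (681 against 1163 CPM). The cause was not tested. Of counts of genes, 167 values stayed within 1.5 times and 65 did not; 124 list medians moved by 0.25 or more (log2) and 681 by less; 641 single-gene values moved outside their counting interval and 1602 stayed inside. These tallies leave out 7 list medians and 21 single-gene values classed as reversed, differences from the other spots' fold included. All 7 of those medians are such differences. The list medians given above that changed sign with the median of ratios or in low-proximal spots are not among the 7. Depth limits low genes most in healthy_LS-FMD, where 3 counts are 2.98 CPM.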

Other observations

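A few genes differed alike in collecting duct spots and elsewhere. RT1-Bb, an MHC class II gene, was at 47.2, 5.68, 125 and 123 CPM in the collecting duct spots of PAN, healthy, PAN_LS-FMD and healthy_LS-FMD, and at 49.2, 3.71, 109 and 125 CPM in the other spots. Both levels were lowest in the healthy section, the only one counted with Space Ranger 2.0.1. Program version and group cannot be told apart for this gene.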
